A study of Mus musculus with 3 samples.

Results

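Imprinted genes were read in peak lists from MeDIP-seq. In this assay an antibody against methylated cytosine pulls down DNA fragments, which are sequenced, and stretches with an excess of reads are listed as peaks. The 42 members were a list of known mouse imprinted genes, 38 coding and 4 non-coding, among 49943 gene records on 21 chromosomes, and they fall into 19 loci. A member's window was its RefSeq gene record, the span of its annotated transcripts, plus 5000 bp on each side. The DNA came from epididymal fat of male mice, C57BL/6J per the growth protocol, 6 weeks old at the start and labelled 16 weeks at harvest after 10 weeks of diet. The FAD library came from mice that had 20 μg/mL folic acid in the drinking water with a high-fat diet, the HFD library from mice on the high-fat diet alone (60% of energy as fat), and the ND library from mice on a normal diet (10% of energy as fat). There was 1 library per diet, so nothing below has a replicate check and no p-value is given. The sources used here do not say whether a library held DNA of 1 animal or of several, and fat tissue is a mixture of adipocytes and other cells.

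In an imprinted gene the copies from the mother and the father are treated differently, and usually only one of them is transcribed. The difference is set by DNA methylation laid down in egg or sperm at a control region and kept in body tissues. In the early embryo the zinc-finger protein ZFP57 helps to keep it by binding a motif whose CpG is methylated. Most known control regions carry the methyl groups on the maternal copy and sit at the start of a gene or of a non-coding RNA, and a few carry them on the paternal copy and sit between genes. CpG-rich starts of other genes are mostly free of methylation. Several imprinted genes act in fat and insulin action, among them Dlk1, which holds back adipocyte formation, Grb10, an adaptor that restrains insulin signalling, and Mest, whose expression in mice goes with fat expansion. A peak list does not say which parental copy was methylated, and it is no measure of expression.

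The start sequences on which the comparison turns are printed here from RefSeq, build GRCm38.p6 (the assembly of mm10), 5′ to 3′ along the gene, as 250 bases before the annotated start and 50 after it, with every CpG in capitals. The first 4 lay at least in part under a peak of every library and belong to genes with a maternal control region. The last 2 hold 40 and 26 CpG and had no peak in any library, so that they show the contrast within a locus (Gnas) and with a cluster gene without a germline region of its own (Phlda2).
Mcts2 chr2:152686898-152687197 (plus strand): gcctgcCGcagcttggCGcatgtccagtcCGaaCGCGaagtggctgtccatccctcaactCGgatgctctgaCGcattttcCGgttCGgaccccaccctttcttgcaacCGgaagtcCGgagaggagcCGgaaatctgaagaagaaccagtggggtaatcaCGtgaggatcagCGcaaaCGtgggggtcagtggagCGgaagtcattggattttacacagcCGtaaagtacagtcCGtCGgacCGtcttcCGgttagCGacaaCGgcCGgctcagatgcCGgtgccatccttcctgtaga
Nnat chr2:157559828-157560127 (plus strand): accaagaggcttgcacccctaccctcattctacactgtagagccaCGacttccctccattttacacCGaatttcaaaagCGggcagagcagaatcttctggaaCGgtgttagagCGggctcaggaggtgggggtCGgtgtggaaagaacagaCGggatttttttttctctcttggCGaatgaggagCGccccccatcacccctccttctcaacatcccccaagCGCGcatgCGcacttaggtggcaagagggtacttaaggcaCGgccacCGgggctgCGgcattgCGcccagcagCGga
Kcnq1ot1 chr7:143296498-143296797 (minus strand): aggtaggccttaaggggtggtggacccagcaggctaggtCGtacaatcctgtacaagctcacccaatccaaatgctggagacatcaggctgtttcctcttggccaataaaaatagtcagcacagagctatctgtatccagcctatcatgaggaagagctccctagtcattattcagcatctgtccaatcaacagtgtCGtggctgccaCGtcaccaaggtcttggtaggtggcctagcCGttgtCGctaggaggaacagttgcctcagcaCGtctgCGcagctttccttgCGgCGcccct
Gnas start 2 chr2:174327499-174327798 (plus strand): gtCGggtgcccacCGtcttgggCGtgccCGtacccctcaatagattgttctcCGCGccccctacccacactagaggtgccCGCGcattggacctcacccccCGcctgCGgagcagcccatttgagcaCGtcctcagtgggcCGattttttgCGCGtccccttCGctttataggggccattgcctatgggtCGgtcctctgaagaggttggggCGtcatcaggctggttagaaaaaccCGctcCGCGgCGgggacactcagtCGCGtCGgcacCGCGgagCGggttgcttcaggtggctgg
Gnas start 4 chr2:174329756-174330055 (plus strand): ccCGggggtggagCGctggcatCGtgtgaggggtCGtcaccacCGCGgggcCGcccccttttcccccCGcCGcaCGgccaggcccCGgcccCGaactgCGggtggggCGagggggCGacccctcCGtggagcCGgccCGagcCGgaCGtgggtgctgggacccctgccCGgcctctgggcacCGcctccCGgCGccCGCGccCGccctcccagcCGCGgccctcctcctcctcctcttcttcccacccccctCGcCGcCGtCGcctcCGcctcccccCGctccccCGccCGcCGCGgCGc
Phlda2 chr7:143502475-143502774 (minus strand): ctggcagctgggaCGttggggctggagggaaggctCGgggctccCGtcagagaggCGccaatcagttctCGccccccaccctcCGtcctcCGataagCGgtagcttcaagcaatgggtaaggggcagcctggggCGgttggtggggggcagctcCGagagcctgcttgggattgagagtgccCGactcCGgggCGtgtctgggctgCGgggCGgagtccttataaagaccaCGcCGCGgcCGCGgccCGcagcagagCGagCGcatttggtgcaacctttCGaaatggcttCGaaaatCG

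Start sequences were found for 33 of the 42 members, with 49 starts in all, and the other 9 (Peg10, Sgce, H19, Kcnq1, Cdkn1c, Rtl1, Impact, Trappc9 and Dcn) had none in the table. A peak lay over at least 1 start of 9 of these 33 members in FAD, 13 in HFD and 10 in ND. Over all 27025 genes with a start sequence, the shares with such a peak were 3.3% in FAD, 5.43% in HFD and 3.84% in ND. The same 9 members had a start peak in all 3 libraries: Peg3, Usp29, Mest, Nnat, Plagl1, Kcnq1ot1, Gnas, Grb10 and Mcts2. The HFD list added Snrpn, Zrsr1, Igf2r and Airn, and the ND list added Igf2r. Of the 12 members with a maternal control region and a start sequence, 8 had a start peak in FAD, 11 in HFD and 8 in ND, and Inpp5f was the member of this group with none in any library. Of the other 21 members, Usp29 had one in FAD, and Usp29 and Igf2r had one in HFD and in ND. Whether a start sequence or its peak lay in the control region itself was not tested. Inpp5f had 1 start sequence, and regions inside its record held peaks of every library.

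Member starts had a higher median CpG count than starts at large, though the ranges overlap. The 49 member starts held a median of 15 CpG and all 32851 starts a median of 7. Among all 11378 starts with 15 CpG or more, 1.54% lay under a peak in FAD, 1.86% in HFD and 1.54% in ND. Of the 25 member starts that rich in CpG, 8 lay under a peak in FAD, 10 in HFD and 9 in ND. These were mostly starts of the maternal control group, which had 11 such starts in 7 genes, 7 of them under a peak in FAD, 8 in HFD and 7 in ND. The group was set by gene, so every such start of a listed gene was counted, whether or not it lies in the control region. The start marked in HFD only was start 1 of Gnas, with score 55.2. The other members had 14 such starts, of which 1, 2 and 2 lay under a peak in FAD, HFD and ND. These counts are of starts and not of separate peaks. Starts 2 and 3 of Gnas nearly coincide and lay under the same peak in each library, as did starts 2 and 3 of Mest. The 4 member starts with 20 to 24 CpG had no peak in any library. The letters TGCCGC, the ZFP57 motif, were searched on both strands and stood in 11.6% of all starts, in 25.1% of all starts with 15 CpG or more and in 32.0% of the member starts that rich. They stood in 6 of the 17 member starts with a peak in any library and in 5 of the 32 without one, but the starts with a peak also held more CpG, with a median of 17 (from 3 to 34) against 13.5 (from 1 to 48). Starts 2 and 3 of Mest are both among the 6. Of the sequences above, Mcts2 and Nnat hold the motif and the other 4 do not.

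**Figure D1:**
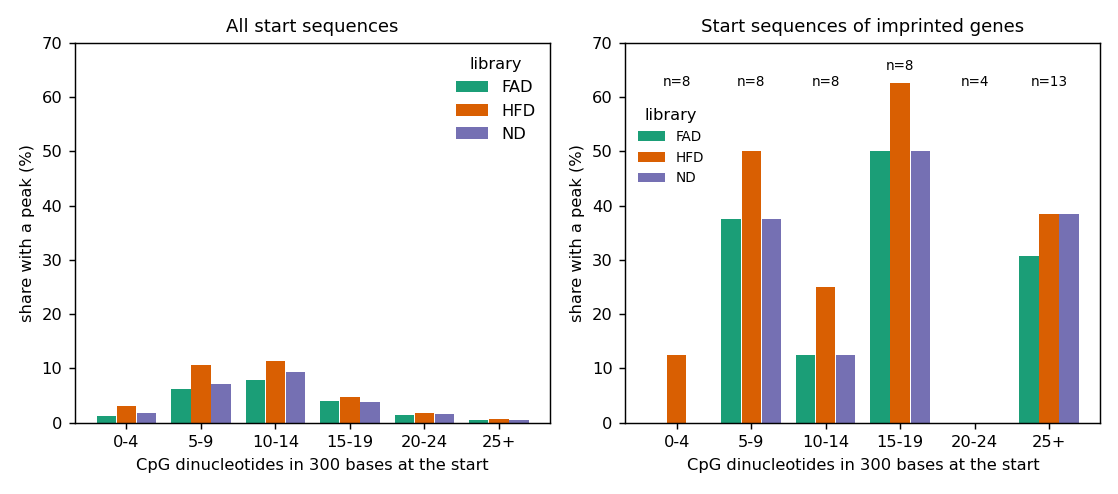
Share of gene starts under a peak (percent) by the number of CpG in the 300-base start sequence, for the members and for all genes, in the FAD, HFD and ND libraries. Of all starts with 15 CpG or more, 1.54% in FAD, 1.86% in HFD and 1.54% in ND lay under a peak, while 8, 10 and 9 of 25 member starts lay under a peak in FAD, HFD and ND.

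The peaks over these starts differed in score and width between the lists. Each peak carries the authors' own score, of at least 50 in every list, whose scale is not stated, so scores of different libraries are set side by side here and no change in methylation is read from them. Over member starts, 10 regions held a peak of all 3 libraries, with overlapping peaks joined into 1 region. One of them, at Zrsr1, reached the start itself in HFD only. The highest score was that of HFD in 9 of the 10, where this holds for 55.8% of all 65103 regions with peaks in all 3 libraries and for 71 of 112 in the member windows. The region at start 1 of Mest was the exception, with the highest score in FAD. The median score in the 10 regions was 103 in FAD, 256 in HFD and 157 in ND, and over all such regions it was 121 in FAD, 165 in HFD and 135 in ND. HFD peaks together also covered the most bases in all 10, and in 69.7% of all such regions. At Peg3 and Usp29 the widest single peak was nonetheless that of ND, with 1721 bp against 1502 bp in HFD. The FAD score was the lowest in 7 of the 10, where it was the lowest in 51.3% of all such regions. The HFD list as a whole had the widest peaks, with a median width of 447 bp in FAD, 587 bp in HFD and 507 bp in ND, and the sources used here give no read depth. The part of depth and of the caller's settings in these differences was not tested.

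**Figure D2:**
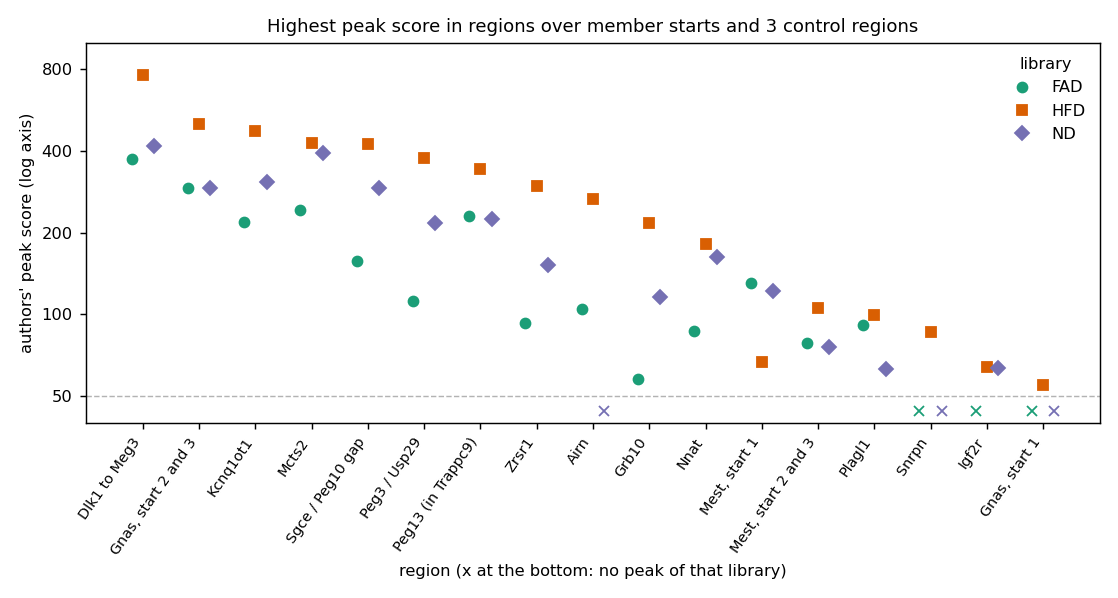
Highest score of each library (log axis, the authors' own scale) in the regions over member starts and in 3 control regions away from a start sequence, with a cross where the library had no peak in the region. Points of HFD stand above those of FAD and ND in most regions, and start 1 of Mest, with 131 in FAD, 67.1 in HFD and 122 in ND, is the reverse.

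The imprinted non-coding RNA Kcnq1ot1, which silences its neighbours in cis, had 2 peaks in FAD, of 771 bp with score 170 over the start and of 671 bp with score 219 beside it. In HFD a single peak of 1892 bp with score 473 covered both, and in ND a single peak of 1618 bp with score 308. The region, chr7:143294978-143296869, was thus marked in every library, and it was split in FAD only. Its start holds 9 CpG, fewer than the other 3 marked starts printed above. Airn, the non-coding RNA that silences Igf2r in cis, had a peak of 814 bp with score 105 in FAD, which began 87 bp beyond the start sequence, and one of 1367 bp with score 267 in HFD, which covered it. The ND list held no peak in this region (chr17:12741246-12742612), and its nearest one lay 23603 bp from the Airn start. Igf2r, the receptor that clears insulin-like growth factor 2, had a peak over its own start (34 CpG) of 833 bp with score 64.3 in HFD and of 309 bp with score 63.3 in ND, both close to the lowest score listed. The nearest FAD peak lay 15496 bp away.

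Peg3, which encodes a zinc-finger protein, and Usp29, a ubiquitin protease gene, start 164 bp apart in opposite directions, so their start sequences share 263 bases and the same peaks cover both. In FAD these were a peak of 1057 bp with score 112 over the starts and one of 587 bp with score 66.6 beside it. In HFD they were 1502 bp with score 375 and 622 bp with score 51.0. In ND a single peak of 1721 bp with score 217 spanned the region. Within their own lists the start peaks stood at percentile 59.5 by score in FAD, 94.3 in HFD and 84.0 in ND. Zim1, the third gene of the locus, also encodes a zinc-finger protein, and its highest peak had score 214 in FAD, 283 in HFD and 263 in ND. Peg10, derived from a retrotransposon, and Sgce, encoding a sarcoglycan, share a control region at the gap between their records. There the HFD list had a peak of 2048 bp with score 423 and the ND list one of 1835 bp with score 292, both reaching across the gap between the records. The FAD peak was 788 bp wide with score 157 and lay wholly within the stretch covered by the HFD and ND peaks. It began at 4747339, just inside the Peg10 record, which starts at 4747306, and so did not reach the gap. Whether it lay in the control region was not tested.

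**Figure D3:**
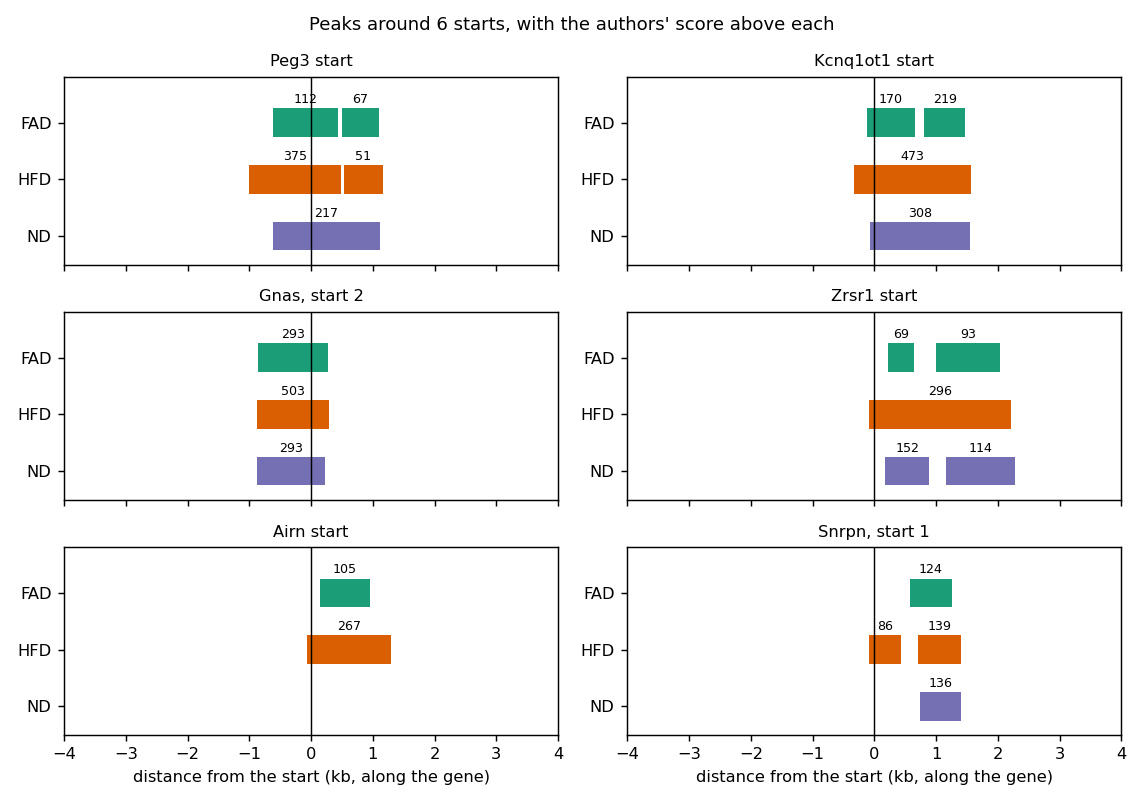
Peaks within 4 kb of 6 member starts in FAD, HFD and ND, drawn to scale along the direction of the gene, with the authors' score above each peak. The Kcnq1ot1 and Zrsr1 regions are 1 peak in HFD and 2 in FAD, Airn has no ND peak, and in Snrpn only the HFD list has a peak over the start itself.

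Gnas, which encodes the stimulatory G protein that couples hormone receptors to lipolysis in fat, has 4 annotated starts. Starts 2 and 3 (27 and 28 CpG) lay under a peak at chr2:174326875-174328043 in all libraries, of 1128 bp with score 293 in FAD, 1169 bp with score 503 in HFD and 1099 bp with score 293 in ND. The 3 peaks had nearly the same edges. Start 4 holds 40 CpG and had no peak, the nearest ending 1739 bp away in FAD, 1712 bp in HFD and 1780 bp in ND. Start 1 (16 CpG) lay under a peak in HFD only, of 592 bp with the low score 55.2, and the nearest FAD peak was 2045 bp and the nearest ND peak 138 bp away. Just downstream of start 1, between 174284508 and 174287370, FAD had a peak of 581 bp with score 55, HFD one of 2860 bp with score 179, and ND a pair with scores 91.1 and 82.6. A further 3 regions between starts 1 and 2 held peaks in every library, with scores of 69.2 to 76.4 in FAD, 70.8 to 204 in HFD and 66.1 to 120 in ND.

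Mest encodes a hydrolase-like protein and has 1 start upstream and 2 further downstream. Its upstream start had a peak of 481 bp with score 131 in FAD, 1561 bp with score 67.1 in HFD and 476 bp with score 122 in ND, so the widest peak there had the lowest score. The downstream starts (17 CpG) lay in a region of 2631 bp, where the peak was 647 bp wide with score 78.6 in FAD, 2631 bp with score 106 in HFD and 2206 bp with score 76.1 in ND. Nnat, encoding the membrane proteolipid neuronatin, lies within Blcap, and its start had a peak of 855 bp with score 86.8 in FAD, 1372 bp with score 181 in HFD and 906 bp with score 162 in ND. Plagl1, a zinc-finger transcription factor gene, had a start peak (26 CpG) of score 91.1 in FAD, 99.5 in HFD and 62.8 in ND. A neighbouring Plagl1 region had higher scores of 129 in FAD, 196 in HFD and 133 in ND. Mcts2, a retrogene copy of a translation factor gene, had one of the higher-ranked start peaks, of 567 bp with score 243 in FAD, 992 bp with score 428 in HFD and 671 bp with score 392 in ND. These stood at percentile 89.2 of the FAD list, 96.1 of HFD and 94.9 of ND.

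Grb10 has a pair of start regions in the table. The start with 9 CpG lay under a peak of 376 bp with score 57.8 in FAD, 430 bp with score 217 in HFD and 424 bp with score 116 in ND, so the widths were alike and the FAD score was near the lowest listed. The start with 45 CpG had no peak, and the nearest lay 8437 bp away in FAD, 8263 bp in HFD and 8336 bp in ND. Beside the start with 9 CpG, a region at chr11:12025611-12027051 had a peak of 505 bp with score 74.2 in FAD and of 1441 bp with score 122 in HFD, and none in ND. On the other side, a region at chr11:12028660-12029107 had score 188 in FAD, 53.5 in HFD and 105 in ND. Zrsr1, a splicing factor retrogene within an intron of Commd1, had in FAD a pair of peaks with scores 68.7 and 93.2, the nearer beginning 168 bp beyond the start sequence. In HFD a single peak of 2301 bp with score 296 covered the start, and in ND a pair with scores 152 and 114 began 130 bp beyond it. Counting a start as marked therefore put Zrsr1 in HFD alone, although its region held a peak of every library. The same holds for Snrpn, a splicing protein gene: a peak over the start itself was listed in HFD only (520 bp, score 85.9), while the region beside it had score 124 in FAD, 139 in HFD and 136 in ND. With 1000 bp added on each side of the start sequences, 16 of the 33 members had a start peak in FAD, 17 in HFD and 15 in ND, where 10.2% of all genes did in FAD, 15.8% in HFD and 11.5% in ND.

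Further regions away from the start sequences were read from the members' windows. Peg13, a non-coding RNA gene inside Trappc9, had a peak of 1328 bp with score 231 in FAD, 1657 bp with score 342 in HFD and 1302 bp with score 225 in ND, at chr15:72809089-72810745. Impact, encoding a regulator of the stress kinase GCN2, had a peak of score 154 in FAD, 249 in HFD and 242 in ND. A further 2 regions in the Impact window held peaks of score 287 and 154 in FAD and of score 388 and 102 in HFD, with none in ND. Inpp5f, an inositol phosphatase gene, had no peak over its start, the nearest lying 950 bp away in FAD, 943 bp in HFD and 820 bp in ND. In the flank before its record, a region at chr7:128608229-128610294 had a pair of peaks in FAD with scores 190 and 233, 1 peak in HFD with score 446, and a pair in ND with scores 241 and 247. Regions inside the Inpp5f record also held peaks of every library. Among them, chr7:128687331-128688564 had a highest score of 138 in FAD, 255 in HFD and 95.9 in ND.

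Of the 3 control regions methylated on the paternal copy, the one between Dlk1 and Meg3 held the peaks with the highest scores. A region 12964 bp before the Meg3 record, outside every member window, had a peak of 1420 bp with score 374 in FAD, 1326 bp with score 763 in HFD and 1610 bp with score 415 in ND. These stood at percentile 95.7 of the FAD list, 99.6 of HFD and 95.5 of ND, at chr12:109526393-109528031. Meg3, a non-coding RNA, had no peak over its starts, and its nearest region had score 88.6 in FAD, 208 in HFD and 105 in ND. Dlk1 had 4 peaks in each library and none over its start. Its highest region in FAD and HFD had score 203 in FAD, 249 in HFD and 196 in ND, and its highest in ND had score 102 in FAD, 179 in HFD and 249 in ND. Between H19 and Igf2, the first peak beyond the H19 record lay 3398 bp from it and was listed in ND only, with score 56.4. The region with the highest scores in this interval lay 37252 bp beyond the H19 record and had score 79.9 in FAD, 179 in HFD and 219 in ND. Upstream of Rasgrf1, a guanine nucleotide exchange factor gene, the region 29502 bp before the record had a peak of score 63.1 in FAD and 71.8 in ND and none in HFD. The region 40489 bp before it had score 87.7 in FAD and 53.7 in HFD and none in ND.

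H19 is a non-coding RNA that hosts Mir675, and the peak inside its record had score 60.5 in FAD, 132 in HFD and 125 in ND. It reached the Mir675 hairpin in HFD and ND and ended 26 bp short of it in FAD. Of 23 miRNA hairpins in the member windows, 1 lay under a peak in FAD, 1 in HFD and 2 in ND, and over all hairpins the shares were 4.98% in FAD, 9.45% in HFD and 6.47% in ND. The others were in the cluster antisense to Rtl1, a retrotransposon-derived gene: Mir127 under a FAD peak of score 81.0 and Mir431 under an ND peak of score 56.5. The mature forms of these 3 are printed from RefSeq, GRCm38.p6, 5′ to 3′ with the seed (bases 2 to 8) in capitals, and no seed is shared among them.
miR-675-5p chr7:142577112-142577133 (minus strand): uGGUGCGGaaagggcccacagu
miR-675-3p chr7:142577078-142577099 (minus strand): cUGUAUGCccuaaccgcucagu
miR-127-5p chr12:109592854-109592875 (plus strand): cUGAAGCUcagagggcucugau
miR-127-3p chr12:109592888-109592909 (plus strand): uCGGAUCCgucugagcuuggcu
miR-431-5p chr12:109590459-109590479 (plus strand): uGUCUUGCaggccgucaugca
miR-431-3p chr12:109590502-109590523 (plus strand): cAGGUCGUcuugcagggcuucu

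Over whole windows the shares went with the length of the record. A window held a peak for 35 of 42 members in FAD, 35 in HFD and 33 in ND, against 57.5% of all gene windows in FAD, 67.9% in HFD and 60.1% in ND. Member records are long, with a median of 28652 bp against 5956 bp over all records. Of the 21 members at or above that median, 20 had a peak in each library, where 89.1%, 94.3% and 89.9% of all records that long had one in FAD, HFD and ND. Of the 21 shorter members, 15 had a peak in FAD, 15 in HFD and 13 in ND, where 49.6%, 61.3% and 52.7% of all shorter records had one. The 7 members with no peak in any library were Phlda2, Ascl2 and Cd81 of the Kcnq1 locus, Ndn and Peg12 of the Snrpn locus, Dio3, which encodes a thyroid hormone deiodinase, and Dcn, which encodes the matrix proteoglycan decorin. The nearest peak to Dcn was 7818 bp from its record in FAD, 7695 bp in HFD and 7801 bp in ND. For Ascl2, a transcription factor gene, it was 5841 bp in FAD, 20400 bp in HFD and 20412 bp in ND, so the FAD peak lay just beyond the window.

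Between HFD and ND, 2 members had a peak in HFD and none in ND, Slc22a18 and Mkrn3, where 10.5% of all gene windows did. None had a peak in ND and none in HFD, where 2.76% did. Slc22a18, a transporter gene of the Kcnq1 locus, had a peak of 353 bp with score 62.1 in FAD and 401 bp with score 95.8 in HFD. Mkrn3, a ubiquitin ligase gene of the Snrpn locus, had one of 385 bp with score 67.1 in FAD and 500 bp with score 51.7 in HFD. The nearest ND peak was 13443 bp from the Slc22a18 record and 10341 bp from the Mkrn3 record. Between FAD and HFD, no member had a peak in FAD and none in HFD (2.32% of all gene windows), nor in HFD and none in FAD (12.7%). Among peaks of score 100 or more, 6 of 42 members had one in HFD and none in FAD, a share close to the 14.5% of all gene windows that did. Between FAD and ND, the same 2 members had a peak in FAD and none in ND (5.21% of all), and none had a peak in ND and none in FAD (7.85%). Each library stands in 2 of these 3 comparisons, so they are not independent.

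The members' peaks were counted once per locus, which gave 165 peaks in FAD, 219 in HFD and 159 in ND over 3.31 Mb of windows. This is 49.9 per Mb in FAD, 66.2 in HFD and 48.1 in ND, where all gene windows held 40.1, 59.1 and 43.2 per Mb in FAD, HFD and ND. Peaks covered 2.46% of the member windows in FAD, 4.70% in HFD and 2.79% in ND. All gene windows were covered to 1.95% in FAD, 3.78% in HFD and 2.4% in ND. Peaks of 1000 bp or more made up 3.64% of the member peaks in FAD, 14.2% in HFD and 10.7% in ND, against 3.66%, 8.17% and 5.71% of the peaks in all gene windows. By locus, Mest was covered to 4.51% in FAD, 19.8% in HFD and 11.6% in ND, the largest HFD share of the 19. Zrsr1 was covered to 10.1% in FAD, 15.9% in HFD and 12.6% in ND. HFD had the largest covered share in 17 of the 18 loci with peaks, as it did over all gene windows. The exception was the H19 locus, with 4.41% in FAD, 3.74% in HFD and 3.68% in ND.

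**Figure D4:**
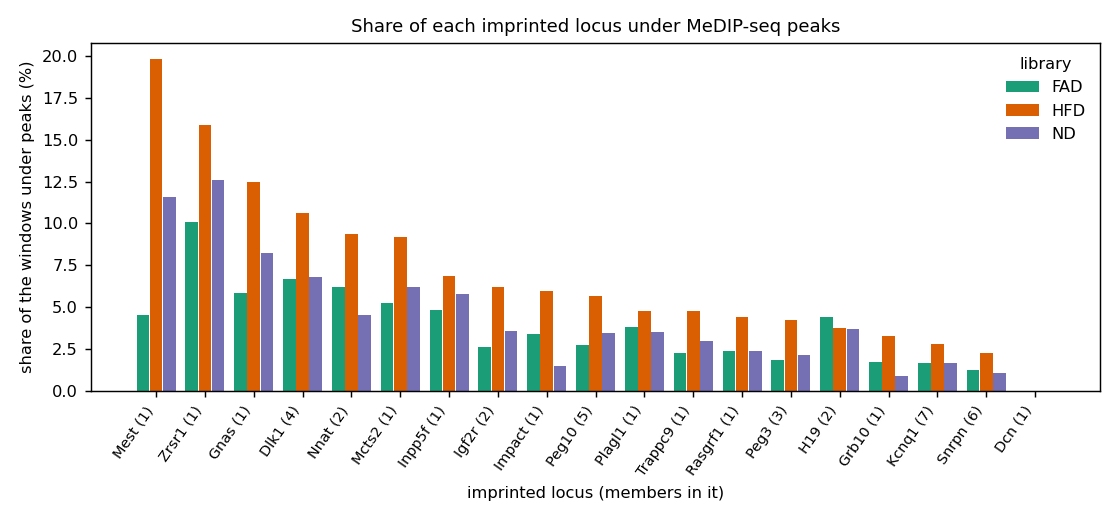
Share of the gene windows of each of the 19 imprinted loci that lay under peaks (percent) in FAD, HFD and ND, in order of the HFD share, with the number of members in brackets. Mest stands highest in HFD with 19.8%, the H19 locus has its largest share in FAD, and Dcn has no peak.

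Of the HFD peaks in member windows, 64.8% overlapped an ND peak (exact Clopper-Pearson 95% interval 58.1 to 71.2), where 61.9% of the whole HFD list did. Of the ND peaks, 89.9% overlapped an HFD peak (84.2 to 94.1), where 83.4% of the whole ND list did. Of the FAD peaks, 87.3% overlapped an HFD peak (81.2 to 91.9; 84.5% of the whole list), and of the HFD peaks 63.9% overlapped a FAD peak (57.2 to 70.3; 58.6%). Of the FAD peaks, 73.9% overlapped an ND peak (66.5 to 80.5; 74.4%), and of the ND peaks 74.8% overlapped a FAD peak (67.4 to 81.4; 69.4%). Intervals cover counting error over peaks only. Of 250 member regions, 112 (44.8%) held peaks of all 3 libraries, 17 (6.8%) of FAD alone, 52 (20.8%) of HFD alone and 12 (4.8%) of ND alone. Over all 161677 regions the shares were 40.3% for all 3 libraries, 6.57% for FAD alone, 23.5% for HFD alone and 7.88% for ND alone. FAD and HFD without ND shared 26 (10.4%) of the member regions and 8.28% of all regions. HFD and ND without FAD shared 27 (10.8%) and 10.9%, and FAD and ND without HFD shared 4 (1.6%) and 2.54%. The highest score among the regions of 1 library was 98.0 in FAD, 146 in HFD and 94.3 in ND, where the median score of the whole list was 97.1 in FAD, 100 in HFD and 101 in ND.

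Cluster genes without a control region of their own had peaks of varied rank. Cdkn1c, a cell cycle inhibitor gene, had 1 peak in FAD with score 68.7, 3 in HFD up to score 102 and 1 in ND with score 59.9, and none of these overlapped a peak of another library. Igf2, encoding insulin-like growth factor 2, had its highest score at 87.7 in FAD, 105 in HFD and 127 in ND, and the HFD peak lay elsewhere in the window than these FAD and ND peaks. Ube3a, encoding a ubiquitin ligase, had a region of score 144 in FAD and 234 in HFD with no ND peak, and another of score 80.9 in FAD, 186 in HFD and 188 in ND. Magel2, a member of the MAGE family, had 1 peak in each library with score 129 in FAD, 120 in HFD and 157 in ND. These peaks do not keep one order of the libraries from gene to gene.

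Other imprinted genes of the same regions and the genes that set or keep imprints were read in the same way. Of 37 other imprinted genes found in the gene table, 28 had a peak in the window in FAD, 33 in HFD and 31 in ND, and of the 30 with a start sequence, 3, 4 and 3 had a peak over it in FAD, HFD and ND. The shares of all gene windows with a peak were 57.5% in FAD, 67.9% in HFD and 60.1% in ND. For all gene starts they were 3.3% in FAD, 5.43% in HFD and 3.84% in ND. Commd1, host of Zrsr1, and Zim2 had a start peak in every library, those of Commd1 being the peaks of the Zrsr1 region given above, and Nap1l5 had one in HFD with score 240 and in ND with score 188. Of the 15 genes that set or keep imprints, 12 had a peak in FAD, 15 in HFD and 13 in ND, to be read beside the same shares of all gene windows. Those with a peak in HFD and none in ND were Trim28 (score 110), the partner through which ZFP57 recruits silencing enzymes, and Zfp57 (score 74.5). That is 2 of 15 genes, where 10.5% of all gene windows had a peak in HFD and none in ND. Dnmt3l, a cofactor in setting germline methylation, had a start peak with score 70.2 in FAD and one with score 102 in HFD, over different starts of the gene, and none in ND.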

How the data were processed

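MeDIP-seq libraries from epididymal fat, 1 per diet, were grouped by their labels. Column-purified DNA went into Illumina libraries, per the labels' protocols. The files are peak lists of build mm10, per the submitters' processing notes, with 95501 peaks in FAD, 135124 in HFD and 101532 in ND over 49.2, 89.1 and 59.6 Mb. Peak names carry the MACS prefix, per the files. The sources used here do not give its version, settings and control, the aligner or the read depth. Each peak has a score that the authors deposited, on a scale not stated, and it was used to describe and rank peaks within a list. Peaks were called per library, and a region below the caller's threshold in a library has no peak in its list.

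Gene records and start sequences came from RefSeq tables of GRCm38.p6. An overlap was 1 bp or more, and peaks of the 3 lists that overlapped were joined into regions. The members, loci, control region groups and companion lists were chosen with earlier results of these data known. All 42 members could be named, and of the companion lists up to 3 genes per list and direction by score. The overlap code gave the call of bedtools 2.31.1 for all 49943 windows in each library and was tested on simulated data. The alternatives were a score of at least 100, lists of equal length, the top 50% by score, midpoints or a reciprocal overlap of 50%, flanks of 2000 bp or none, and 1000 bp around starts. Scripts ran in Python 3.11.15 with pandas 2.3.3, numpy 2.4.6, matplotlib 3.10.9 and scipy 1.17.1.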

Additional observations from a re-analysis of the deposited data

How the results depend on the processing

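Of 105 values recomputed under other settings, 70 stayed close to those reported and 35 moved. With peaks of score 100 or more, 1 member had a peak in HFD and none in ND, 6 in HFD and none in FAD, 0 in FAD and none in ND, and 5 in ND and none in FAD. The share of HFD peaks with a FAD peak was then 50.8% and of ND peaks with a FAD peak 60.5%. With the top 50% of each list these 4 counts were 1, 6, 0 and 5, and the shares 52.5% and 63.5%. With lists cut to equal length, 1 member had a FAD peak and none of HFD, and 1 an HFD peak and none of ND. The shares were then 78.2% of FAD peaks with an HFD peak, 74.4% of HFD peaks with a FAD peak, 72.0% of HFD peaks with an ND peak and 82.0% of ND peaks with an HFD peak. With midpoints, 5 members had a start peak in FAD, 5 in HFD and 4 in ND. With a reciprocal overlap of 50%, the shares were 68.9% of FAD peaks with an HFD peak, 51.8% of HFD peaks with a FAD peak, 66.5% of FAD peaks with an ND peak, 56.0% of HFD peaks with an ND peak and 76.7% of ND peaks with an HFD peak. With flanks of 2000 bp, and again with the record alone, 1 member each had a peak in FAD and none in HFD, in HFD and none in FAD, in ND and none in HFD, and in ND and none in FAD. Over all gene windows, 14.5% had a peak of score 100 or more in HFD and none in FAD. Apart from the start counts with 1000 bp added, no other count of members under other settings has a share over all genes beside it. Those counts cannot be judged against one. With 1000 bp added around starts, 16 members had a start peak in FAD. The cause of these moves was not tested. No paired analysis was possible because there is 1 library per diet and no result comes from a test. The sources used here give no read depth, so a missing peak cannot be told apart from shallow sequencing. Scores of different lists are comparable only if they share a scale, and a peak gives no methylation level.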

Other observations

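The highest peaks in the member windows lay inside long genes and away from the control regions named in the report. That of Ppp1r9a also lay away from its start sequences. Trappc9 had no start sequence, and its highest region, chr15:73057829-73058637, lay near the end of the record at 73061238. Ppp1r9a, encoding the actin-binding protein neurabin, had a peak of 765 bp with score 1330 in FAD, 1468 bp with score 939 in HFD and 867 bp with score 1030 in ND. Trappc9, encoding a subunit of a vesicle trafficking complex, had one of 684 bp with score 916 in FAD, 809 bp with score 1520 in HFD and 773 bp with score 989 in ND. Both stood at or above the 99.8th percentile of every list. Calcr, the calcitonin receptor gene, had its highest score at 237 in FAD, 385 in HFD and 461 in ND, and Rasgrf1 at 188 in FAD, 399 in HFD and 460 in ND.

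Peaks were also counted for marker genes of adipocytes, leukocytes and epididymis, as a description of the lists. The window held a peak for 7 of 10 adipocyte markers in FAD, 8 in HFD and 5 in ND, for 2, 3 and 2 of 5 leukocyte markers in FAD, HFD and ND, and for 1, 4 and 1 of 5 epididymis markers. Over all gene windows the shares were 57.5% in FAD, 67.9% in HFD and 60.1% in ND. Of 9 adipocyte markers with a start sequence, Lep had a start peak in FAD, Cidec had one in HFD and none had one in ND. Of 3 leukocyte markers, Ptprc had one in FAD and none had one in HFD or ND, and of 3 epididymis markers none had one in any library. Over all genes, 3.3% in FAD, 5.43% in HFD and 3.84% in ND had a start peak.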
